A study of Mus musculus with 36 samples.

Results

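CHD4 peaks of neural progenitor cells (NPCs) were often found close together along the genome. Peaks whose gap was at most 12.5 kb were joined, and a joined region with at least 5 peaks was called a dense cluster. Of 13344 joined regions, 326 were dense clusters, and these held 2005 of the 20234 NPC CHD4 peaks (9.91%) in 7.00 Mb of summed span, or 0.263% of the reference chromosomes. Because peak positions chose the clusters, the number, spacing and value of their CHD4 peaks are given as a description.

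The series comprised 36 ChIP-seq samples, a method that sequences the DNA precipitated with a protein, and peak lists of 9 samples were analysed here. Wild-type R1 ESCs, a mouse embryonic stem cell line, were grown in serum and LIF with 2i (a pair of kinase inhibitors), and gave 2 lists each for CHD4 and MBD3 and 2 lists for SIN3A, of which 1 came from a preparation with spike-in chromatin. The NPCs were derived from wild-type R1 ESCs in vitro and kept in NPC medium, which the study's methods describe as containing bFGF and EGF. CHD4 and MBD3 gave 1 list each in NPCs, so the clusters have no replicate. GFP-tagged ZFP296 was precipitated with a GFP antibody from ESCs labelled as R1 cells with a ZFP296 BAC, whereas the study's methods describe a tagged construct in KH2 ESCs. Expression of marker genes was not analysed here, so the labelled cell types could not be checked against markers. ESC CHD4 replicate 2 is labelled wild type, but a Zfp219 BAC line appears in the names of its peaks, and its list held 29974 peaks against 11712 in replicate 1. The main values that rest on ESC CHD4 are therefore also given for each replicate alone.

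CHD4 is a chromatin remodeling ATPase and MBD3 a structural subunit of NuRD, a nucleosome remodeling and deacetylase complex that slides nucleosomes and removes acetyl groups from histones. CHD4 is also known outside this complex, so a CHD4 peak without MBD3 need not mark NuRD. NuRD is known for binding active promoters and enhancers, and stretches of the genome with many closely spaced binding sites are often found near genes of cell identity. For NPC-specific NuRD sites, however, the study found none of its examined histone marks, and the sites seemed highly methylated in both cell types. Histone marks were not analysed here.

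The clusters with the most CHD4 peaks lay near Phf15, which encodes a PHD finger protein of the JADE family, in Ahnak, which encodes a very large scaffold protein, in Dlgap1, which encodes a postsynaptic scaffold protein, around Obfc1, which encodes a telomere capping protein, and in Ubtd1, which encodes a ubiquitin-domain protein. The Ubtd1 cluster shared its 13 peaks with a longer cluster near Zfp184, described further on, and was taken as the shorter of the tie. To show what sequence lay under such peaks, the centre of the CHD4 peak with the highest value in each of these 5 clusters is printed. The value is the authors' −log10 score of the peak. None of the printed stretches touched an annotated exon, though the Obfc1 peak as a whole reached into an exon and TSS window of Obfc1. Capitals mark TGAGTCA, the AP-1 string, or ACAATGG, the other strand of the SOX string CCATTGT. The sequences are the plus strand of mm9, in the order chr11:51687882-51688100, chr19:9135753-9136052, chr17:71088887-71089186, chr19:47583312-47583611 and chr19:42091360-42091659.
Phf15: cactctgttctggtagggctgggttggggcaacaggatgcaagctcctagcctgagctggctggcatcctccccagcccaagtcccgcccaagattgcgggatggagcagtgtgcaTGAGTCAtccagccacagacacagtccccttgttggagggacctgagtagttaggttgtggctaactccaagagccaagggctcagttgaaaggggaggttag
Ahnak: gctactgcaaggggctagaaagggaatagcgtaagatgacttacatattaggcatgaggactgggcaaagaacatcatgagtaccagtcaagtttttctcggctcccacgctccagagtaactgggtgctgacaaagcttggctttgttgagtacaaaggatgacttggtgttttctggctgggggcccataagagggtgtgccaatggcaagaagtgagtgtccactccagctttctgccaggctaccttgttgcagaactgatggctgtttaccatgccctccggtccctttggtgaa
Dlgap1: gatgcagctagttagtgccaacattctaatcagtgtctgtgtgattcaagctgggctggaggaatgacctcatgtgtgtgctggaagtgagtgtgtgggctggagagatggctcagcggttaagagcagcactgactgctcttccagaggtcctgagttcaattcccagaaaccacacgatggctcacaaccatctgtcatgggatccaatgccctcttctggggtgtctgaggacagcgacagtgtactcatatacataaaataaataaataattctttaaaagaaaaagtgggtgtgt
Obfc1: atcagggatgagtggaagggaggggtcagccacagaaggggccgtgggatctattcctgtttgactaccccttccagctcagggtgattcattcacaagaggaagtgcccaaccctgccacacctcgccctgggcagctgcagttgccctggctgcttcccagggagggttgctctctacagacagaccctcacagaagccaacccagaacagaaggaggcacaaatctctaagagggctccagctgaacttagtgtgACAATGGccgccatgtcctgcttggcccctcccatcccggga
Ubtd1: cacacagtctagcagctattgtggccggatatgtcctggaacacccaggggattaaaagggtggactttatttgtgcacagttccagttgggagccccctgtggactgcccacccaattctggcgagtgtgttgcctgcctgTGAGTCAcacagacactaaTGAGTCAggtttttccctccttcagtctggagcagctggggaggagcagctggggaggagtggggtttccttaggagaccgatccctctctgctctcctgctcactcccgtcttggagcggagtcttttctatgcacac
The Ubtd1 sequence, under a peak with a value of 27.5, held the AP-1 string 2 times, and the Phf15 sequence, with a value of 19.8, held it 1 time. The Obfc1 sequence, with a value of 37.9, held the SOX string and no AP-1 string. The Ahnak and Dlgap1 sequences, with values of 23.9 and 24.9, held neither. MBD3 was called at the Ahnak, Obfc1 and Ubtd1 peaks, and none of the 5 peaks overlapped an ESC CHD4 peak.

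Most joined regions were small. Of the 13344 regions, 9319 were single peaks, 2526 held 2 peaks, 834 held 3 and 339 held 4, the number just below the threshold. Of the dense clusters, 180 held exactly 5 peaks, 51 held 6 and 44 held 7. A further 51 held 8 or more, up to 23 in the Phf15 cluster. Regions of 4 peaks spanned 11.8 kb at the median and regions of 5 peaks spanned 16.8 kb, and the median value of their peaks was 9.21 in both. The span of dense clusters ranged from 2.39 to 61.5 kb with a median of 19.9 kb. Neighbouring peaks within clusters were 2749 bp apart at the median, against 29817 bp over all NPC CHD4 peaks. CHD4 peaks had a median value of 9.38 inside and 8.97 outside clusters and a median width of 223 and 205 bp. The highest peak of each cluster had a median value of 17.4.

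**Figure D1:**
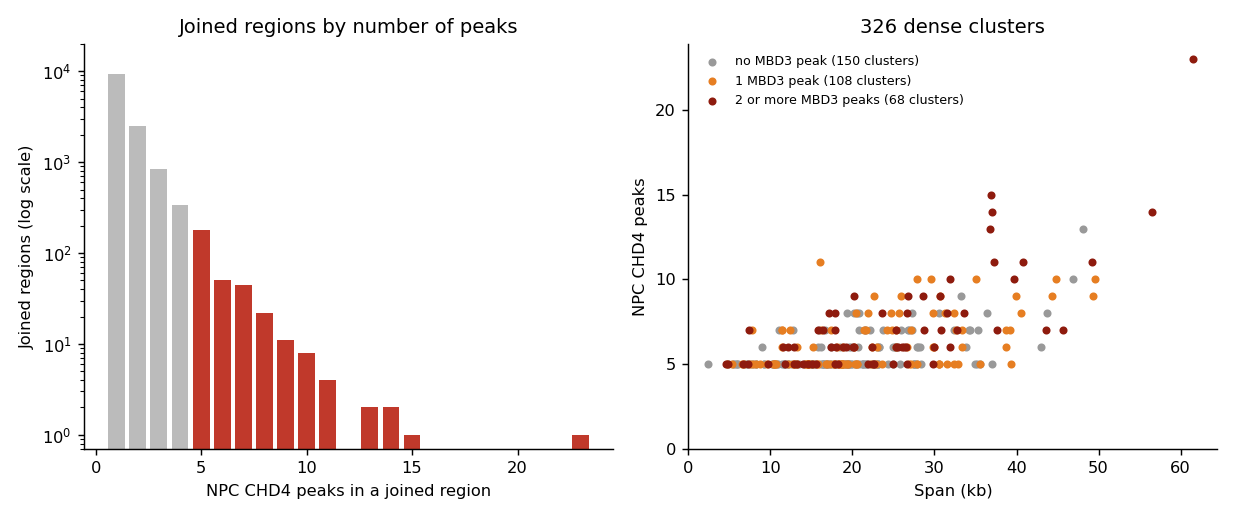
Left, number of joined regions (log scale) by the number of NPC CHD4 peaks they hold, with the 326 dense clusters in red. Right, the CHD4 peak number of each dense cluster against its span in kb, coloured by the number of NPC MBD3 peaks in the span. Colours mark clusters with none (150), with 1 (108) and with 2 or more, of which 43 held exactly 2. The Phf15 cluster with 23 CHD4 peaks over 61.5 kb stands at the upper right.

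The Phf15 cluster (chr11:51668845-51730385) was the largest in both peak number and span. Its first 5 CHD4 peaks lay in the transcription start site (TSS) window of Phf15, defined from 1 kb upstream to 5 kb downstream, and 3 of its peaks had their midpoint in the gene, while the other peaks stretched away from it into sequence with no protein-coding gene. Peak values ran from 3.91 to 19.8, and the highest was 19.1 kb from the start of the cluster. Peaks of the other lists were spread unevenly over the span. SIN3A, a scaffold of another histone deacetylase complex, was profiled in ESCs only. Its peaks were all in the first 3.73 kb, around the TSS. The 3 NPC MBD3 peaks were at CHD4 peaks 25.9, 40.7 and 60.8 kb from the start. ESC MBD3 was called with SIN3A at a CHD4 peak 3.10 kb from the start, in both replicates. Replicate 2 gave another ESC MBD3 peak 17.6 kb from the start, at no NPC CHD4 peak. ESC CHD4 gave 2 peaks in replicate 1 and 9 in replicate 2 within this span.

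The Ahnak cluster (chr19:9117809-9154647) held 15 CHD4 peaks, of which 13 were in the gene body and none was in a TSS window. It had the most NPC MBD3 peaks of all clusters, 6, all of them at CHD4 peaks between 17.05 and 33.8 kb from its start, and the values of these 6 CHD4 peaks ranged from 11.3 to 23.9. No ESC MBD3, ZFP296 or SIN3A peak was called in the span. All 14 CHD4 peaks of the Dlgap1 cluster (chr17:71069223-71106272) lay in the Dlgap1 gene body, with values from 3.46 to 24.9 and 2 MBD3 peaks. ESC CHD4 gave 4 peaks there in replicate 1 and 11 in replicate 2. Of the NPC CHD4 peaks of this cluster, 0 overlapped a replicate 1 peak and 3 overlapped a replicate 2 peak. The Obfc1 cluster (chr19:47557559-47614102) held 14 peaks over 56.5 kb with 3 MBD3 peaks, at the CHD4 peaks with values of 26.1, 37.9 and 19.7, which were the strongest 3 of the cluster. In the Ubtd1 cluster (chr19:42073392-42110107) 12 of 13 CHD4 peaks were in the gene, 2 MBD3 peaks were called, and no ESC CHD4 peak was called in either replicate. The Lzts2 cluster (chr19:45080912-45130086), named for a regulator of beta-catenin, differed from these. Its span of 49.2 kb held the TSSs of 5 genes (Lzts2, Sfxn3, Peo1, Pdzd7 and Mrpl43), and 9 of its 11 peaks were in TSS windows.

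Of the 10 clusters with the most CHD4 peaks, 4 overlapped no protein-coding gene. The cluster 0.192 kb from the TSS of Zfp184, a zinc finger gene (chr13:21988730-22036789), held 13 CHD4 peaks and no MBD3 peak of either cell type, and none of its peaks held the AP-1 string. It held 3 ZFP296 peaks and 6 and 13 ESC CHD4 peaks in replicates 1 and 2. The 11-peak clusters nearest to 1700001O22Rik (chr2:30563215-30579203, distance 78.0 kb) and to Cebpb, which encodes a leucine zipper transcription factor (chr2:167585591-167626326, distance 71.2 kb), held 1 and 2 NPC MBD3 peaks.

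**Figure D2:**
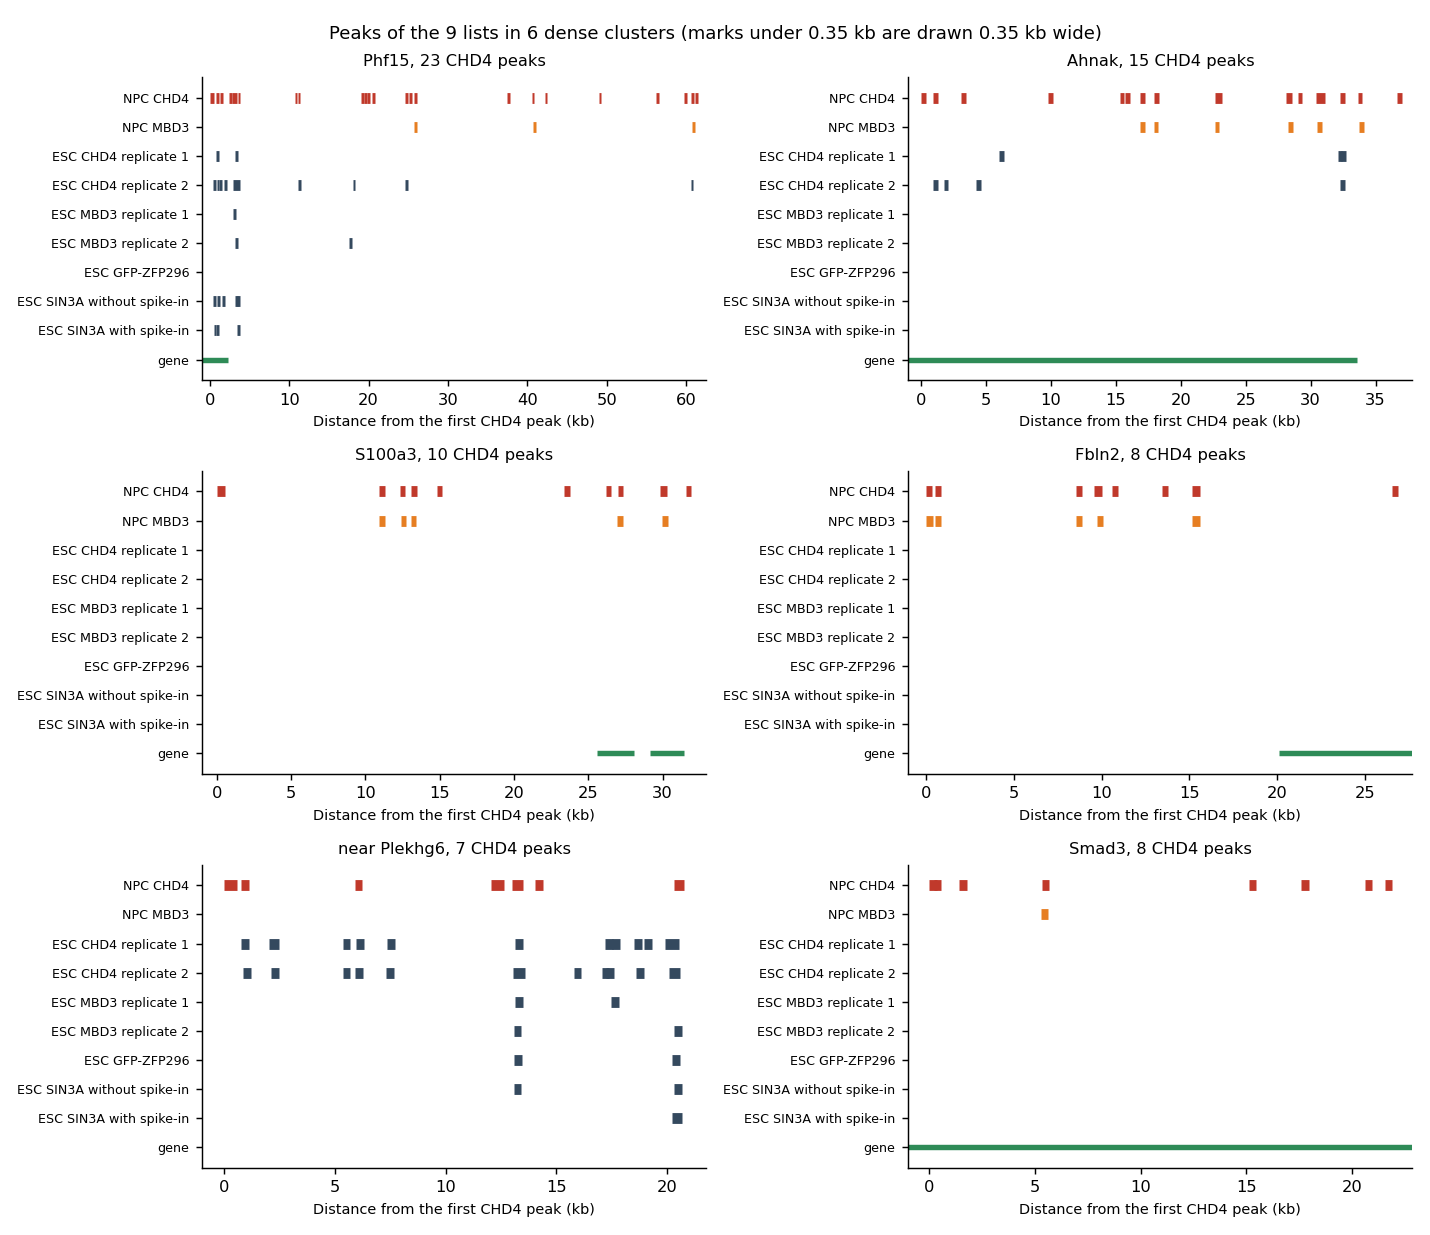
Maps of 6 dense clusters: the 2 with the most CHD4 peaks (Phf15, Ahnak), the clusters at S100a3 and Fbln2 with 5 NPC MBD3 peaks each, a cluster near Plekhg6 that is dense in both ESC CHD4 lists, and the cluster in Smad3. Each row is a peak list, marks are peaks at their distance in kb from the first CHD4 peak, and green bars are protein-coding genes. In Phf15 the SIN3A marks sit at the left end, with ESC MBD3 marks among them and another of replicate 2 at 17.6 kb. The NPC MBD3 marks lie further right. The S100a3, Fbln2 and Smad3 maps have no mark of any ESC list.

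MBD3 was called in 176 of the 326 cluster spans (54.0%, exact 95% interval 48.4% to 59.5%), against 13.3% of all joined CHD4 regions, which are mostly single peaks and therefore much shorter. To compare without this difference in length, single CHD4 peaks were counted. Of the 2005 clustered CHD4 peaks, 274 overlapped an NPC MBD3 peak by at least 1 bp (13.7%, interval 12.2% to 15.2%), against 1701 of 18229 peaks outside clusters (9.33%, interval 8.91% to 9.76%), and 9.76% of all NPC CHD4 peaks did. The intervals did not overlap. They cover counting error only and treat peaks as independent, whereas peaks of a cluster share a locus, and no test was made since the clusters were chosen on these peaks. In the upper quartile of CHD4 peak values, 27.7% of clustered and 19.3% of other peaks carried MBD3, and in the lowest quartile 4.07% and 3.64% did. Seen from MBD3, 283 of 2304 peaks (12.3%) lay in cluster spans, and 274 of these 283 (96.8%, interval 94.0% to 98.5%) were on a CHD4 peak, against 83.3% (interval 81.6% to 84.9%) of MBD3 peaks elsewhere. A cluster span is made of CHD4 peaks, so an MBD3 peak far from any CHD4 peak can only lie elsewhere. The rule that made the clusters thus favours this difference, which is given as a description. The median value of the MBD3 peaks was 8.76 inside and 8.61 outside.

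Within a cluster, MBD3 was unevenly spread over the CHD4 peaks. At the strongest CHD4 peak of each cluster MBD3 was called in 87 of 326 clusters (26.7%, interval 22.0% to 31.8%). The share was 21.2% at the peak ranked second, 12.9% at the next and 6.44% at rank 5. Clustered CHD4 peaks with MBD3 had a median value of 13.9 and a width of 352.5 bp, and those without it 8.76 and 211 bp. The median CHD4 value fell over the same ranks, from 17.4 to 6.65, and its part in the order of the shares was not tested. Most clusters with MBD3 held few MBD3 peaks: 108 held 1, 43 held 2, 16 held 3, 5 held 4 and 4 held 5 or more. By itself MBD3 formed 2 dense clusters in NPCs, from its 2304 peaks, under the same rule.

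Among the clusters with the most MBD3 peaks after Ahnak were those at S100a3, Fbln2, Cxxc5 and Tbl1xr1. The cluster at S100a3 and S100a4, which encode small calcium-binding proteins (chr3:90378554-90410492), held 10 CHD4 peaks, 5 of them with MBD3. The Fbln2 cluster (chr6:91142365-91169054), named for an extracellular matrix glycoprotein, lay mainly upstream of the gene and held 8 CHD4 peaks, 5 of them with MBD3. Both were free of peaks of all ESC lists. A cluster 35.6 kb from the TSS of Cxxc5, which encodes a CXXC zinc finger protein (chr18:36025061-36054833), held only 5 CHD4 peaks but 5 NPC MBD3 peaks. Of these CHD4 peaks, 4 overlapped an NPC MBD3 peak. The span also held 4 and 7 ESC CHD4, 1 and 3 ESC MBD3, 2 ZFP296, and 6 and 3 SIN3A peaks. The cluster 112 kb from the TSS of Tbl1xr1, a gene for a corepressor subunit (chr3:21834501-21863111), held 9 CHD4 and 4 NPC MBD3 peaks, beside 2 and 4 ESC CHD4 and 1 and 1 SIN3A peaks. Other clusters also held 4 NPC MBD3 peaks, such as the one at Socs1, but fewer CHD4 peaks.

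The largest regions had MBD3 at more of their CHD4 peaks and the AP-1 string at fewer than single peaks did, though not at every step: regions of 4 peaks had MBD3 at 13.3% of peaks. AP-1 transcription factors are dimers of FOS and JUN proteins that bind enhancers, and the strings TGAGTCA and its complement TGACTCA were searched in the central 200 bp of each peak. Single CHD4 peaks overlapped MBD3 in 7.67% (interval 7.14% to 8.23%), peaks in regions of 5 in 11.8% (interval 9.74% to 14.1%), and peaks in clusters of 8 or more in 15.5% (interval 12.4% to 18.99%). The AP-1 string was present at 44.5%, 39.0% and 32.8% of the same peaks. Over all clusters it was present at 719 of 2005 CHD4 peaks (35.9%, interval 33.8% to 38.0%), against 42.98% (interval 42.2% to 43.7%) outside, 42.3% of all NPC CHD4 peaks and 3.11% of 200-bp windows tiled over the genome. Outside TSS windows the string was present at 38.4% (interval 36.1% to 40.8%) of clustered and 49.5% of other peaks. In TSS windows the direction was opposite, at 21.8% (interval 17.3% to 26.9%) and 17.5%. In all 4 quartiles of peak value the clustered peaks also had the lower share. Counted by cluster, 294 of 326 (90.2%) held the string at 1 or more CHD4 peaks, 4 held it at every peak and 32 at none. Such counts depend on the number of peaks in a cluster and have no like-sized regions beside them, so they do not show enrichment. The string was more frequent at clustered peaks with MBD3 (42.7%, interval 36.8% to 48.8%) than without (34.8%, interval 32.5% to 37.1%), although these intervals overlap.

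Other strings did not set the clusters apart. The TEAD string GGAATGT was present at 5.24% of clustered and 5.15% of other peaks, 5.16% of all peaks and 2.71% of genome windows. The SOX string CCATTGT was present at 3.14% and 3.81% (3.75% of all peaks), and the POU octamer ATGCAAAT at 0.599% and 0.829% (0.806% of all peaks), with overlapping intervals. The octamer was thus rarer than in genome windows, of which 1.73% held it. The full NFI palindrome was found at 0 clustered peaks, with an exact upper limit of 0.184%, and at 6 other peaks, or 0.0297% of all. Both strands were searched, and a match is only a match of letters. The median GC content of the central 200 bp was 50.5% inside and 48.5% outside clusters.

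**Figure D3:**
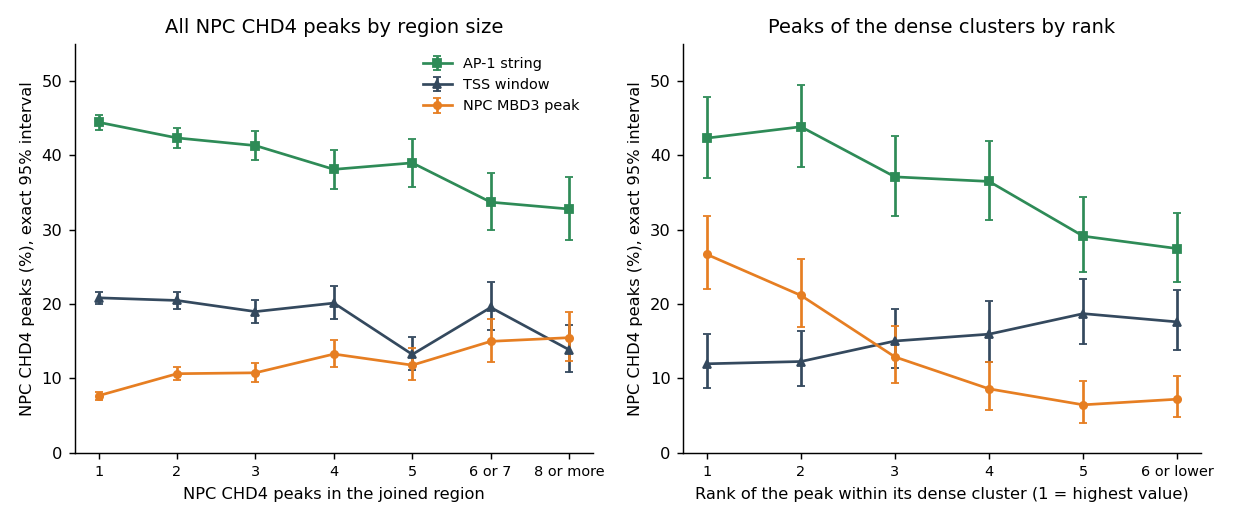
Percent of NPC CHD4 peaks with an MBD3 peak, with the AP-1 string and in a TSS window, with exact 95% intervals. Left, by the number of CHD4 peaks in the joined region, from 1 to 8 or more, where the MBD3 share goes from 7.67% to 15.5% and the AP-1 share from 44.5% to 32.8%, neither at every step. Right, clustered peaks by their rank of value within the cluster, where the MBD3 share falls from 26.7% at rank 1 to 6.44% at rank 5.

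ESC CHD4 was compared to ask whether the same regions are already dense before differentiation. The rule gave 394 dense clusters in ESC CHD4 replicate 1 and 1214 in replicate 2, and 356 of the 394 (90.4%) overlapped one of replicate 2. Of the NPC clusters, 24 (7.36%, interval 4.77% to 10.8%) overlapped a dense ESC cluster of replicate 1 and 74 (22.7%, interval 18.3% to 27.6%) one of replicate 2. In all, 75 overlapped a dense cluster of either replicate (23.0%), against 5.75% of all joined NPC CHD4 regions, which are shorter. Seen from ESCs, 23 of 394 (5.84%) and 74 of 1214 (6.10%) dense clusters overlapped a dense NPC cluster. Fewer NPC clusters overlapped the dense clusters of replicate 1, whose list is shorter.

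Where the clusters coincided, the peaks within them often did not. In the 75 shared clusters, 204 of 486 NPC CHD4 peaks (42.0%, interval 37.5% to 46.5%) overlapped an ESC CHD4 peak of either replicate. With each list alone, it was 48 of 146 (32.9%) in the 24 clusters dense in replicate 1 and 189 of 475 (39.8%) in the 74 dense in replicate 2. In the 75 spans, 47.5% of replicate 1 and 46.9% of replicate 2 peaks overlapped an NPC peak. How often peaks of the ESC lists overlapped each other there was not counted. A difference between lists can therefore not be told from a difference between cell types. In the other 251 clusters, which have fewer ESC peaks by definition, 9.87% of NPC CHD4 peaks overlapped an ESC CHD4 peak of either replicate. Seen from ESCs, 60.9% of replicate 1 and 59.7% of replicate 2 peaks in those spans overlapped an NPC peak. In 1 cluster of the 326 did every CHD4 peak overlap an ESC CHD4 peak, and in 152 (46.6%) none did, or in 225 and 156 for replicates 1 and 2 alone. Over all clusters 354 of 2005 peaks (17.7%) overlapped an ESC CHD4 peak of either replicate, against 15.4% outside and 15.6% of all NPC CHD4 peaks. The shares were 8.13% against 6.13% for replicate 1 (6.33% of all peaks) and 16.5% against 14.4% for replicate 2 (14.7% of all peaks), and a peak in both replicates was overlapped by 6.98% against 5.17% (5.35% of all peaks). Outside TSS windows the difference was larger, 14.6% (interval 13.0% to 16.4%) against 9.32% (interval 8.85% to 9.81%), and in TSS windows it turned, at 34.5% (interval 29.2% to 40.1%) against 39.1%. Outside TSS windows the shares were 7.13% against 3.86% for replicate 1 and 13.5% against 8.76% for replicate 2.

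The clusters were divided by ESC CHD4 into 121 with no ESC peak in the span, 130 with scattered ESC peaks, and the 75 that were dense in ESCs too. Their median spans were 19.4, 20.5 and 20.4 kb. MBD3 was called in 52.1%, 53.1% and 58.7% of them and at 13.0%, 13.5% and 15.02% of their CHD4 peaks, with overlapping intervals. They differed in sequence and position. The AP-1 string was present at 42.7% (interval 39.1% to 46.5%), 34.2% and 28.6% (interval 24.6% to 32.8%) of CHD4 peaks, and outside TSS windows at 42.7%, 37.8% and 31.7%. CHD4 peaks were in TSS windows in 6.21% (interval 4.55% to 8.24%), 18.8% and 22.8% (interval 19.2% to 26.8%). From replicate 1 alone, 196 clusters had no ESC CHD4 peak, 106 had scattered peaks and 24 (7.36%) were dense, so most of the 75 rest on replicate 2 alone, the list with the Zfp219 names. The AP-1 shares of these classes were 39.8% (interval 36.9% to 42.6%), 31.0% and 28.1% (interval 21.0% to 36.1%), and their TSS window shares 9.47%, 23.4% and 23.3%. From replicate 2 alone, the classes held 124, 128 and 74 clusters, with AP-1 shares of 42.9%, 33.9% and 28.4%. These classes from single lists were added after seeing the data. SIN3A, which was profiled in ESCs, was called in 13 of 121, 65 of 130 and 57 of 75 clusters, and ZFP296, a zinc finger protein, in 2, 19 and 30.

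Among the 23 NPC clusters that overlapped a dense cluster of both ESC lists, the largest lay in Sept9, which encodes a septin of the cytoskeleton (chr11:117162289-117193018). It held 9 NPC CHD4 peaks, 5 and 9 ESC CHD4 peaks, 2 NPC MBD3 peaks, and 2 and 6 ESC MBD3 peaks. Of those with 7 NPC CHD4 peaks, the 4 named here overlapped no protein-coding gene, while others did, such as the one at Plaur. The cluster 32.6 kb from the Plekhg6 TSS (chr6:125363425-125384195) had no NPC MBD3 peak but 11 ESC CHD4 peaks in each replicate and 2 ESC MBD3 peaks in each, and 4 of its 7 NPC peaks overlapped ESC CHD4 peaks of both replicates. The cluster 5.28 kb from the Sirt4 TSS (chr5:115940010-115947382) had 3 NPC MBD3 and 0 ESC MBD3 peaks. A pair of clusters on chromosome 12, 20.9 kb apart (chr12:88127769-88143568 and chr12:88164457-88175810), lay 50.4 kb from the TSS of Gm6772 and 49.95 kb from that of 6430527G18Rik.

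Shares of the other ESC lists were small. ESC MBD3 peaks overlapped 1.85% (replicate 1) and 3.39% (replicate 2) of clustered CHD4 peaks, against 0.971% and 1.99% outside and 1.06% and 2.13% of all. ZFP296 overlapped 2.24% (interval 1.64% to 2.99%) against 0.883% (interval 0.753% to 1.03%), and 1.02% of all. SIN3A went the other way, with 7.73% (interval 6.60% to 8.99%) against 9.46% (interval 9.04% to 9.89%) without spike-in (9.29% of all) and 5.29% against 7.33% with spike-in (7.13% of all). By span, ZFP296 was called in 51 clusters (15.6%) against 2.01% of all joined regions, and ESC MBD3 in 41 (12.6%) and 89 (27.3%) against 1.96% and 4.04%. SIN3A was called in 124 (38.0%) and 98 (30.1%) against 13.6% and 10.9%, and ESC CHD4 in 130 (39.9%) and 201 (61.7%) against 9.72% and 20.5%. All joined regions are shorter, so these shares are not like for like. In 51 clusters (15.6%) no peak of any other list was called, although all of these lists but NPC MBD3 are from ESCs. In 22 clusters (6.75%) NPC MBD3, ESC CHD4, ESC MBD3, ZFP296 and SIN3A were all called at least 1 time. Neither count was made over all joined regions, so whether it is unusual is not known.

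**Figure D4:**
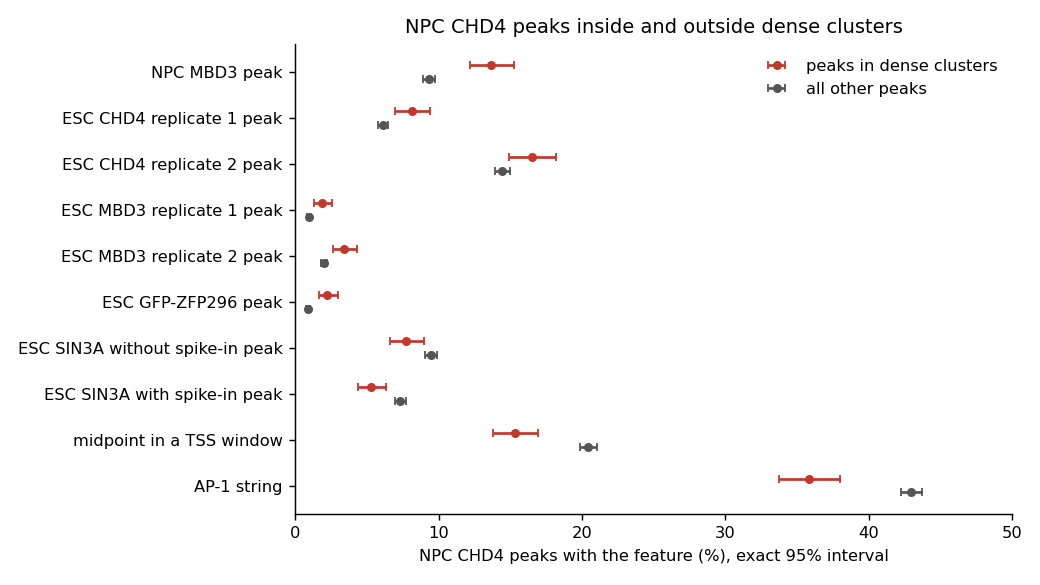
Percent of NPC CHD4 peaks that overlap a peak of each other list, lie in a TSS window or hold the AP-1 string, for the 2005 peaks in dense clusters (red) and the 18229 others (grey), with exact 95% intervals that cover counting error only. Clustered peaks are higher for MBD3 (13.7% against 9.33%) and ZFP296, and lower for SIN3A, TSS windows (15.3% against 20.4%) and the AP-1 string (35.9% against 42.98%).

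Clustered CHD4 peaks were in TSS windows less often than the other CHD4 peaks, by counting intervals that did not overlap. Of clustered CHD4 peaks, 307 (15.3%, interval 13.8% to 16.96%) had their midpoint in a TSS window, against 20.4% outside and 19.9% of all peaks, while 50.9% were between protein-coding genes, against 45.6% outside. A midpoint in a gene body was found for 45.5% inside and 47.6% outside, and for 47.4% of all peaks. In 200 clusters (61.3%) no CHD4 peak was in a TSS window, and 126 held at least 1 there, while 20.8% of the regions with a single peak were in a TSS window. The strongest peak of a cluster was between genes in 174 clusters, in a gene body outside TSS windows in 113 and in a TSS window in 39. Of the 326 spans, 204 (62.6%, interval 57.1% to 67.8%) overlapped a protein-coding gene, against 52.8% of all joined regions, and 116 (35.6%) held a TSS, against 11.7%. Most joined regions are single peaks and therefore much shorter, so these contrasts by span are not like for like. In 89 clusters all CHD4 peaks were in the body of 1 gene. The 122 clusters that overlapped no protein-coding gene were 30.4 kb from the nearest TSS at the median and 366 kb at most, and 101 of them overlapped no annotated gene of any type.

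The 5 most compact clusters were 2.39 to 4.86 kb long. The cluster with the most peaks per kb held 5 CHD4 peaks in 2.39 kb (chr11:98965974-98968366), 15.4 kb from the TSS of Tns4, which encodes a tensin, and its median peak value was 5.04. The next held 5 peaks in 4.55 to 4.86 kb. They lay 1.27 kb from the TSS of Cirbp, a cold-inducible RNA-binding protein (chr10:79622914-79627462), at Spsb2 (chr6:124754247-124758999), 360 kb from the TSS of Pgk2 (chr17:39980854-39985629), and at St3gal3, a sialyltransferase gene, and Artn, which encodes a neurotrophic factor (chr4:117602092-117606954). In the cluster on chromosome 17 every CHD4 peak overlapped a SIN3A peak of the preparation with spike-in, a single wide one, and none overlapped an ESC CHD4 peak. Its span overlapped AY036118, annotated as a pseudogene and named here after its values were seen. The span also held 3 NPC MBD3 and 2 ZFP296 peaks, and none of its CHD4 peaks held the AP-1 string. No repeat annotation was used here, so whether repeated sequence gave rise to the peaks of this cluster was not tested.

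Protein-coding genes whose body overlapped a cluster numbered 265 of 22380 (1.18%), and 160 genes had a TSS in a cluster (0.715%). Their median length was 36.0 kb, against 15.4 kb for all genes and 47.2 kb for the 4965 genes with any NPC CHD4 peak. Of the listed genes of 10 groups, 11 of 171 (6.43%) overlapped a cluster. The lists were chosen with results of these data known, and 46.2% of the listed genes held a CHD4 peak, against 22.2% of all genes. Adhesion and cytoskeleton genes gave 5 of 28: Itga5 (a fibronectin receptor subunit), Itgb5 (a vitronectin receptor subunit), Actn1 (an actin cross-linker), and Col4a1 and Col4a2 (basement membrane collagens). AP-1, Hippo, TGF-beta and BMP, Notch, neural progenitor, and receptor tyrosine kinase and ERK genes gave 1 gene each, of 10, 13, 26, 15, 19 and 21 genes. Neuron genes (9), pluripotency genes (16) and NuRD subunits (14) gave 0.

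Among listed signaling genes, the cluster in Wwtr1, which encodes the Hippo pathway coactivator TAZ (chr3:57274322-57319188), held 10 CHD4 peaks over 44.9 kb, all in the gene, with 1 MBD3 peak, and 0 and 1 ESC CHD4 peaks. In Notch2, a Notch receptor gene (chr3:97846265-97871018), 8 CHD4 peaks with 1 MBD3 peak were all in the gene, and no ESC CHD4 peak was called. In Smad3, which encodes a transducer of TGF-beta signals (chr9:63548970-63570833), all 8 peaks were in the gene and had values from 6.10 to 21.5, with 1 MBD3 peak and no peak of any ESC list. Fgfr2, an FGF receptor gene, had 2 clusters of 5 and 6 peaks with 2 and 1 MBD3 peaks. Its annotated body (chr7:137305965-140315033) is very long in this annotation, and 1 of them also overlapped Htra1, so neither need belong to the gene.

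Of the clusters, 5 held a TSS of a listed gene, counting the starts of all its annotated protein-coding transcripts. Col4a2 (chr8:11367756-11412135) had 9 peaks with values from 3.85 to 12.5 and 1 MBD3 peak. None of these CHD4 peaks was in a TSS window. The gene spans chr8:11312805-11449287, so the TSS in the cluster is internal to it. Fosl1, which encodes an AP-1 subunit (chr19:5429826-5473362), had 7 peaks, of which 4 held the AP-1 string and 2 carried MBD3, and its span also held Fibp, Ccdc85b and Ctsw. Itga5 (chr15:103179044-103208992) had 6 peaks and 2 MBD3 peaks, beside 1 and 6 ESC CHD4 peaks. Nes, which encodes the progenitor intermediate filament nestin (chr3:87752395-87791116), had 6 peaks in a span that also held Crabp2, a gene for a retinoic acid binding protein. Its strongest peak, with a value of 30.6, lay 38.5 kb from the cluster start and outside TSS windows, held the AP-1 string and was the single peak of the cluster with MBD3. The peaks at the Nes TSS, with values of 8.70 and 11.1, overlapped SIN3A peaks of both ESC preparations. The peak with a value of 11.1 also overlapped an ESC CHD4 peak of replicate 2. SIN3A was not profiled in NPCs, so these overlaps are not set against MBD3 in the same cells. Smad3 was the last of these clusters, and none of its CHD4 peaks was in a TSS window. The gene lies on the minus strand and spans chr9:63494574-63605801, so the TSS in that cluster is internal too.

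Clusters were unevenly spread over chromosomes. Chromosome 19 held 26 clusters (7.98%), against 4.23% of NPC CHD4 peaks and 3.24% of protein-coding genes, and 22.8% (interval 20.01% to 25.7%) of its CHD4 peaks were in clusters, against 9.91% overall. Chromosome 3 held the most clusters, 37 (11.3%), with 14.02% of its peaks inside, followed by chromosome 6 with 31 and chromosome 2 with 29. Chromosome 14 held 3 clusters, and chromosome X none from 143 peaks. Dense ESC clusters were distributed differently: chromosome 19 held 2.03% and 2.64% of those of replicates 1 and 2, chromosome 3 held 3.55% and 3.13%, and chromosome 8 held 10.7% and 9.47%, against 4.60% of NPC clusters. Input samples were not analysed here, so copy number of these chromosomes in the cultures was not tested. Without chromosome 19, an alternative chosen after seeing the data, 9.34% of the remaining CHD4 peaks were in clusters, and MBD3 was called in 53.3% of clusters. In part clusters followed each other closely: 61 of them (18.7%) lay within 100 kb of another, such as the Obfc1 cluster, which followed one at Sh3pxd2a, an invadopodia scaffold gene, after 18.7 kb.

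**Figure D5:**
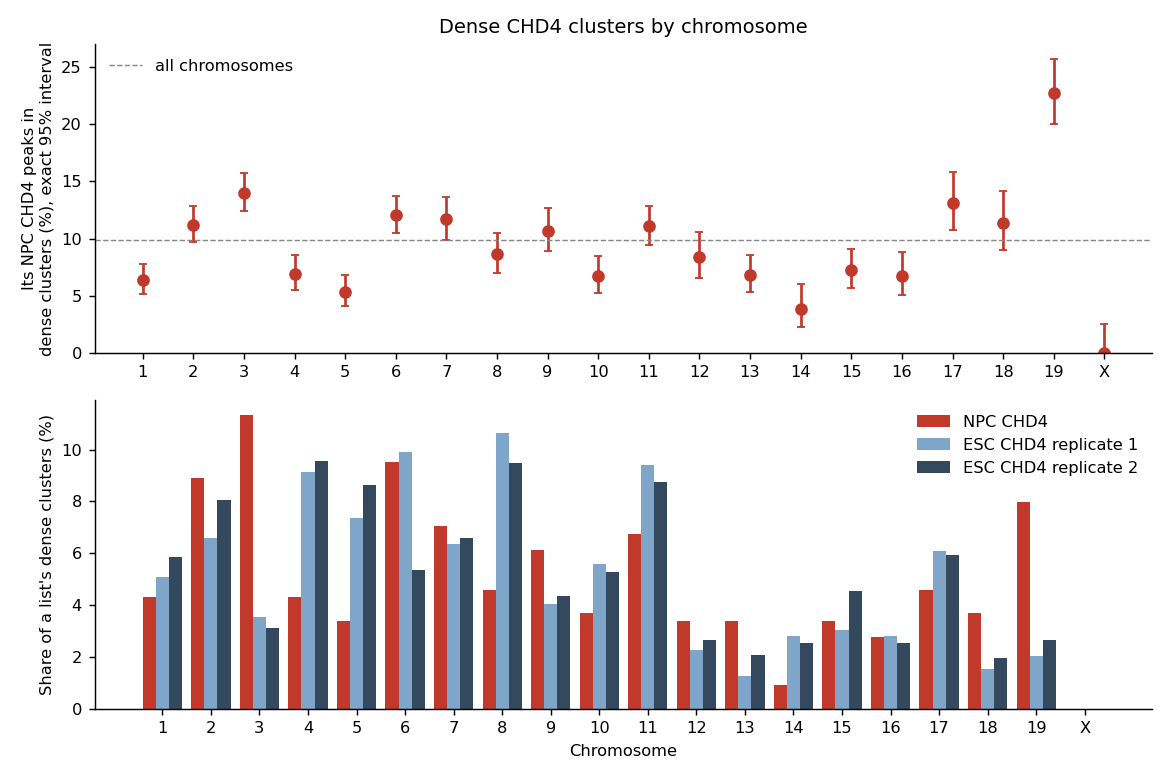
Top, percent of each chromosome's NPC CHD4 peaks that lie in dense clusters, with exact 95% intervals and the value over all chromosomes (9.91%) as a dashed line; chromosome 19 is highest at 22.8%. Bottom, share of the dense clusters of NPC CHD4, ESC CHD4 replicate 1 and ESC CHD4 replicate 2 by chromosome, where chromosome 3 is highest in NPCs (11.3%) and chromosome 8 in ESC replicate 1 (10.7%).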

How the data were processed

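ChIP-seq peak lists of 9 samples were used. Per the study's methods the authors mapped reads to mm9 with BWA, kept uniquely mapped reads and called peaks with MACS (version 2.0 in the submitters' processing notes) for each sample against an input, and the deposited lists give each peak a −log10 value. Whether it is a p-value or a q-value, and the read depth behind the peaks, are not given in the sources used here. Peak numbers differed between lists (2304 to 29974) and do not measure depth. Peak names carry a stricter calling threshold for SIN3A without spike-in.

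The members and gene lists were chosen with earlier results of these data known. Peaks were joined and overlapped (at least 1 bp) in Python 3.11.15 with numpy 2.4.6, scipy 1.17.1 and pyfaidx 0.9.0.4. Genes came from GENCODE vM1 on the same build, and 10 NPC CHD4 peaks on contigs without a reference sequence were left out of string searches. Of 175 listed genes, 4 were not in the annotation. Named clusters are the 10 with most CHD4 peaks, the 5 with most NPC MBD3 peaks, the 5 densest, up to 10 with the TSS of a listed gene, the 5 largest dense in both ESC lists, and the widest. Protein-coding genes that overlap the span name a cluster, or else the nearest TSS. Clusters in the bodies of other listed genes were named after their values were seen. No test was made, and shares carry exact (Clopper-Pearson) 95% intervals. Joining, overlap and intervals were tested on simulated data. The 27 other samples were not analysed here. Of the clusters the rule names, 1 is not reported here.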

Additional observations from a re-analysis of the deposited data

How the results depend on the processing

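Of 108 values under alternative settings, 32 moved by more than their interval or, for the number of clusters, by over 1.5 times. They are shares and counts with no direction of their own, and the inside-outside differences for the AP-1 string and ESC CHD4 turned within TSS windows. With regions of at least 4 peaks there were 665 clusters with 16.6% of CHD4 peaks, a median span of 15.5 kb, MBD3 in 47.7% and ZFP296 in 11.3% of clusters, and 17.3% of peaks in TSS windows. With at least 6 peaks there were 146 clusters with 5.46% of CHD4 peaks, a median span of 25.5 kb, MBD3 in 67.1%, SIN3A in 47.3% and protein-coding genes in 69.2% of clusters, 17.01% of peaks in TSS windows and the AP-1 string at 33.3%. A gap of at most 10 kb gave 242 clusters with 7.38% of peaks and a median span of 17.3 kb, and one of 15 kb gave 394 with 12.2% and 23.9 kb. Without CHD4 peaks of a value under 5 the share in clusters was 8.53%, and without chromosome 19 (chosen after seeing the data) 9.34%. With midpoints within 500 bp, MBD3 was found at 15.7% and ESC CHD4 at 20.8% of clustered peaks. For peaks with values above the median the shares were 21.1% for MBD3, 12.6% for TSS windows and 40.4% for AP-1. Outside TSS windows they were 14.6% for ESC CHD4 and 38.4% for AP-1. Within 1 kb of a TSS lay 9.03% of clustered peaks, and a central 500 bp held the AP-1 string at 45.9%. Leaving out 1 ESC CHD4 list gave 8.13% to 16.5% of clustered peaks with ESC CHD4 and 7.36% to 22.7% of clusters dense in ESCs, the lower values being without replicate 2. Leaving out 1 SIN3A list gave 30.1% to 38.0% of clusters. No paired analysis was possible because no test was made and each NPC protein has 1 list. Read depth is unknown, so a missing peak says only that none was called.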
